A study of Mus musculus with 11 samples.

Results

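Cd3e, Cd3g, Cd4, Cd8a, Gzma, Gzmb, Nkg7, Prf1, Ncr1 and Cd226 are genes of T cells and natural killer (NK) cells, the lymphocytes that recognise and kill infected or altered cells. These 10 genes were chosen by symbol, and each was measured by 1 array feature that maps to a single gene, among 19938 genes in all. They were read in whole lung tissue of 129S1 mice on 11 Affymetrix arrays, 1 per sample. The combination group received aspirin and triptolide together (3 arrays), the triptolide group triptolide alone (3 arrays), the aspirin group aspirin alone (3 arrays), and the control group was untreated (2 arrays). Aspirin was dosed at 4 mg per kg and triptolide at 1 mg per kg, by gavage on 5 days a week for 2 months, in PBS. The protocol lists a PBS buffer group where titles and characteristics read untreated, so whether the controls were gavaged is not settled. The labels give no sex or age, and do not say that samples of a group came from separate animals, so each p-value measures the spread between these samples, which may be technical. Aspirin blocks cyclooxygenases, the enzymes of prostanoid synthesis, and triptolide is a plant diterpenoid that inhibits transcription through a subunit of the general factor TFIIH.

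A T cell recognises antigen through its T cell receptor, which signals through the CD3 chains, while the coreceptors CD4 and CD8 bind the presenting molecules of class II and class I. Cytotoxic T cells and NK cells kill by releasing granules in which perforin opens the way for granzymes, and NK cells are triggered by activating receptors such as the product of Ncr1. The lung holds both kinds of cell in its capillaries, its airway walls and its lymphoid aggregates.

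Reference promoters of the members that varied together across the arrays are shown first. RefSeq's table for GRCm38.p6 gave a promoter, 250 bases before to 50 bases after the gene start, for 8 of the 10 members. Cd4 and Cd226 are not shown. The sequences are those of the reference strain, not of 129S1, and each is printed 5′ to 3′ on the gene's own strand. Capitals in the first 3 mark the RUNX core (TGTGGT, or ACCACA on the other strand), bound by Runx3, a regulator of cytotoxic lymphocytes.
Gzma, chr13:113100932-113101231, minus strand: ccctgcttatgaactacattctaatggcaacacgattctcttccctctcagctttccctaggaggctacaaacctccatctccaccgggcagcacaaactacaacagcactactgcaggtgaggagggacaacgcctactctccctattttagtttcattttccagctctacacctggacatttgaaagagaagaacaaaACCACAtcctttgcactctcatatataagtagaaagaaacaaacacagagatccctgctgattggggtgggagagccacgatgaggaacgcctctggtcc
Gzmb, chr14:56262285-56262584, minus strand: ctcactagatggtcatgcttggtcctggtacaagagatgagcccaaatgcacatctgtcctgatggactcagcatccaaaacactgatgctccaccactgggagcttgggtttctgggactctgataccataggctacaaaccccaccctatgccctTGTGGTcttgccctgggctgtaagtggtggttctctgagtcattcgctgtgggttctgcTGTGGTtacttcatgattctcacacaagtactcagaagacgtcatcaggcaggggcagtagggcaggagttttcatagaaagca
Ncr1, chr7:4337465-4337764, plus strand: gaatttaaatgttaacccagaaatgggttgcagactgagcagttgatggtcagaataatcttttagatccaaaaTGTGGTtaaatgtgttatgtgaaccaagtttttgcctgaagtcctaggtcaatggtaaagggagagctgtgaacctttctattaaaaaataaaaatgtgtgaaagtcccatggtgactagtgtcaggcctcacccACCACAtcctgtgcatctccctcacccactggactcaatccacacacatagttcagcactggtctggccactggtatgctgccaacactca
The RUNX core stood in the promoters of 5 of 8 members (Gzma, Gzmb, Nkg7, Prf1 and Ncr1), against 16.9% of 27025 mouse promoters of this length. The matches of Gzmb began at -93 and -34 from the gene start, and those of Ncr1 at -176 and -41. Among the further T and NK cell genes described below, 25 of 67 promoters held it, which is 37.3%. Capitals in the next pair mark an E-box (CAGGTG, or CACCTG on the other strand), the motif of E proteins, which act in T cell development.
Cd3e, chr9:45009562-45009861, minus strand: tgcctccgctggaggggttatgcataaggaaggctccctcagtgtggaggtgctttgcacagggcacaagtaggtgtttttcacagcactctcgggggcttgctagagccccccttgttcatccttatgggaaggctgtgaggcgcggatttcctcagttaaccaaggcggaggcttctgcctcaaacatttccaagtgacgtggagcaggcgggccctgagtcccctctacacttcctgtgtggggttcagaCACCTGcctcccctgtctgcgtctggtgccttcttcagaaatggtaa
Cd3g, chr9:44980382-44980681, minus strand: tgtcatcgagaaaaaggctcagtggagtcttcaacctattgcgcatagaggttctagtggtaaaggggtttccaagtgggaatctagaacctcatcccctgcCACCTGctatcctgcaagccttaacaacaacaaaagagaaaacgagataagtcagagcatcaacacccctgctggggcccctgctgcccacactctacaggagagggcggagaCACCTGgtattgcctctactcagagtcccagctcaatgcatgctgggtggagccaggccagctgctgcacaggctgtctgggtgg
The E-box stood in 4 of 8 member promoters (Cd3e, Cd3g, Gzma and Prf1), against 20.0% of the 27025 promoters. The 2 matches of Gzma are in lower case above, and Cd8a, Gzmb, Nkg7 and Ncr1 had none. The ETS motif GGAAGT (or ACTTCC) stood in 2 of 8, against 24.1%, and the T-box motif GGTGTGA (or TCACACC) in 1 of 8, against 4.0%. These matches describe letters in a window and were not tested.

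Markers of lung were high, with the surfactant gene Sftpc between 13.62 and 14.27 on every array. All values are log2 expression values as deposited, without a background level or detection call, so no gene can be called absent. Combination 1 stood apart from the other arrays, with a mean correlation across genes of 0.9533 against 0.9828 to 0.9884, and its erythroid and cell cycle lists stood at 3.49 and 2.84 above their means over the arrays. The mean centred level of 3 Y-linked genes (Eif2s3y, Uty and Kdm5d) was between -1.82 and -0.76 in combination, at -0.94, 1.87 and 1.58 in triptolide, between 1.39 and 1.60 in aspirin and at -1.55 and -1.68 in control. Xist, the RNA of the inactive X chromosome, was at 1.92 to 2.74 on the 6 arrays of low Y-linked level, at -0.32 on triptolide 2 and at -3.45 to -3.07 on the other 4. Aspirin arrays therefore differed from combination and control arrays in sex-linked genes as well as in treatment, and the triptolide arrays differed among themselves. Fewer cells of a type and less RNA per cell cannot be told apart in whole tissue.

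Cd3g and Cd4 were higher on every combination and triptolide array than on any aspirin array, and Cd3e was higher in group mean only. No member passed the test in any comparison. Cd3e, the signalling chain found in every T cell receptor complex, was at 9.67, 9.46 and 9.54 in combination, 9.81, 9.34 and 9.49 in triptolide, 9.19, 9.31 and 9.48 in aspirin, and 9.35 and 9.34 in control. The combination arrays all lay above both controls, while the triptolide and aspirin ranges overlapped the combination range. Cd3g, another chain of the same complex, was at 8.51, 8.59 and 8.51 in combination, 8.66, 8.24 and 8.54 in triptolide, 8.11, 8.17 and 8.23 in aspirin, and 8.23 and 8.39 in control. Every combination and triptolide array was above every aspirin array for Cd3g, narrowly so for triptolide 2. Its group means were 8.54 ± 0.05, 8.48 ± 0.22, 8.17 ± 0.06 (SD, n = 3 each) and 8.31 ± 0.11 (SD, n = 2) in the same order.

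Cd4, the coreceptor of helper T cells, spread most of the 4 receptor genes. It was at 8.86, 8.57 and 8.66 in combination, 9.08, 8.41 and 8.40 in triptolide, 7.89, 8.15 and 8.28 in aspirin, and 8.45 and 8.51 in control. The aspirin arrays were the lowest 3 of all, and the combination arrays lay above both controls. Triptolide 1 was the highest array for Cd4, Cd3e and Cd3g, and aspirin 1 the lowest for all of them. Cd8a, the coreceptor of cytotoxic T cells, behaved otherwise, at 8.58, 8.15 and 8.31 in combination, 8.16, 7.91 and 8.17 in triptolide, 8.22, 8.03 and 8.25 in aspirin, and 8.29 and 8.28 in control. Its triptolide and aspirin arrays lay below both controls, and the combination arrays lay on both sides of them.

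**Figure D1:**
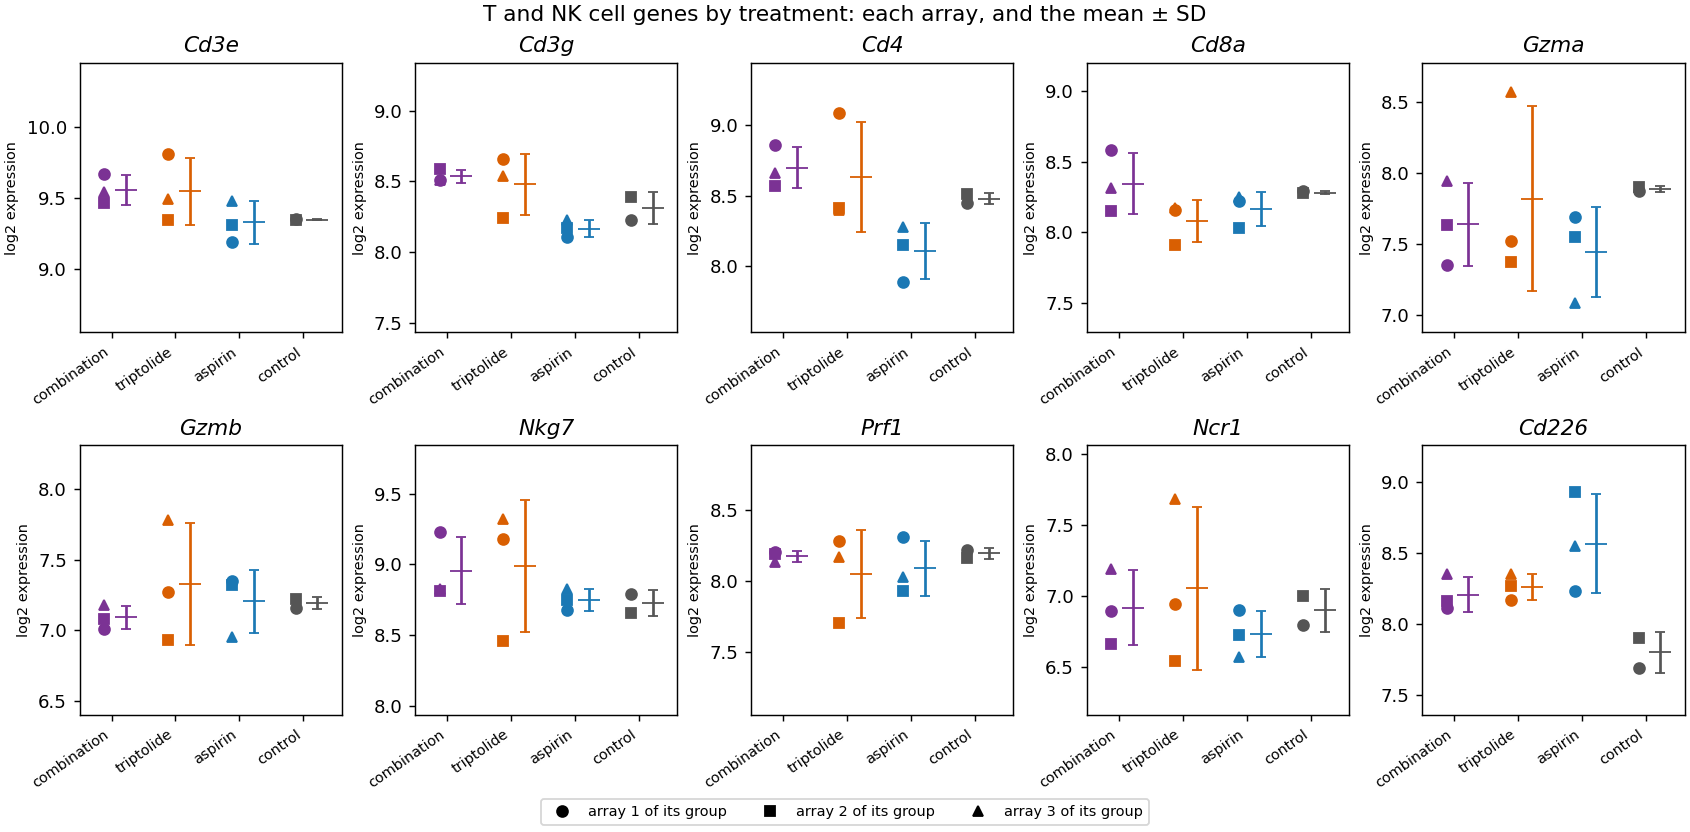
Log2 expression of the 10 genes on each array (points, shaped by replicate number), with the group mean and SD beside them, each panel spanning the same range of log2 units. The aspirin arrays are the lowest 3 for Cd4 (7.89 to 8.28), triptolide 3 is highest for Gzma (8.57), and both controls are lowest for Cd226 (7.69 and 7.90).

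Gzma, Gzmb and Ncr1 were highest on 1 triptolide array, triptolide 3. Gzma, a granule protease, was at 7.35, 7.63 and 7.94 in combination, 7.52, 7.37 and 8.57 in triptolide, 7.69, 7.55 and 7.08 in aspirin, and 7.87 and 7.90 in control. Triptolide 3 exceeded the next array by 0.63, and all 3 aspirin arrays were below both controls. Gzmb, the granzyme that cuts caspases in target cells, was at 7.01, 7.08 and 7.18 in combination, 7.27, 6.93 and 7.78 in triptolide, 7.35, 7.32 and 6.95 in aspirin, and 7.16 and 7.22 in control. Its groups all overlapped, and triptolide 3 was again highest, 0.43 above the next array. Ncr1, which encodes the NK cell receptor NKp46, was at 6.89, 6.66 and 7.19 in combination, 6.94, 6.54 and 7.68 in triptolide, 6.90, 6.72 and 6.57 in aspirin, and 6.79 and 7.0 in control. Triptolide 3 stood 0.48 above the next array and triptolide 2 was the lowest of all, so 1 group held both ends of the range. Gzmb and Ncr1 had means below 7.48, the 25th percentile of all genes, and the other 8 members lay above it.

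Nkg7, a granule membrane protein needed for granule release, was at 9.23, 8.81 and 8.83 in combination, 9.18, 8.46 and 9.32 in triptolide, 8.68, 8.75 and 8.83 in aspirin, and 8.79 and 8.66 in control. Combination arrays lay above both controls, narrowly for combination 2, and triptolide held the highest and the lowest array. Prf1, the pore-forming perforin, was at 8.20, 8.19 and 8.13 in combination, 8.28, 7.70 and 8.17 in triptolide, 8.31, 7.93 and 8.03 in aspirin, and 8.22 and 8.16 in control. Its groups overlapped in every pair, and its group means spanned 0.74 of the pooled within-group SD, the smallest ratio of the 10 genes. The same ratio was 3.62 for Cd226, 2.85 for Cd3g and 2.41 for Cd4, and between 0.90 and 1.71 for the other 6.

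Cd226 was higher on every treated array than on either control. It encodes an activating receptor (DNAM-1) of T and NK cells that binds the adhesion molecules Pvr and Nectin2, and in humans it is also carried by platelets. Cd226 values were 8.11, 8.16 and 8.35 in combination, 8.17, 8.27 and 8.35 in triptolide, 8.23, 8.93 and 8.55 in aspirin, and 7.69 and 7.90 in control. Group means were 8.21 ± 0.12, 8.26 ± 0.09, 8.57 ± 0.35 (SD, n = 3 each) and 7.80 ± 0.15 (SD, n = 2) in that order. Combination and triptolide arrays overlapped each other almost fully, and aspirin reached higher through aspirin 2 and aspirin 3.

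**Figure D2:**
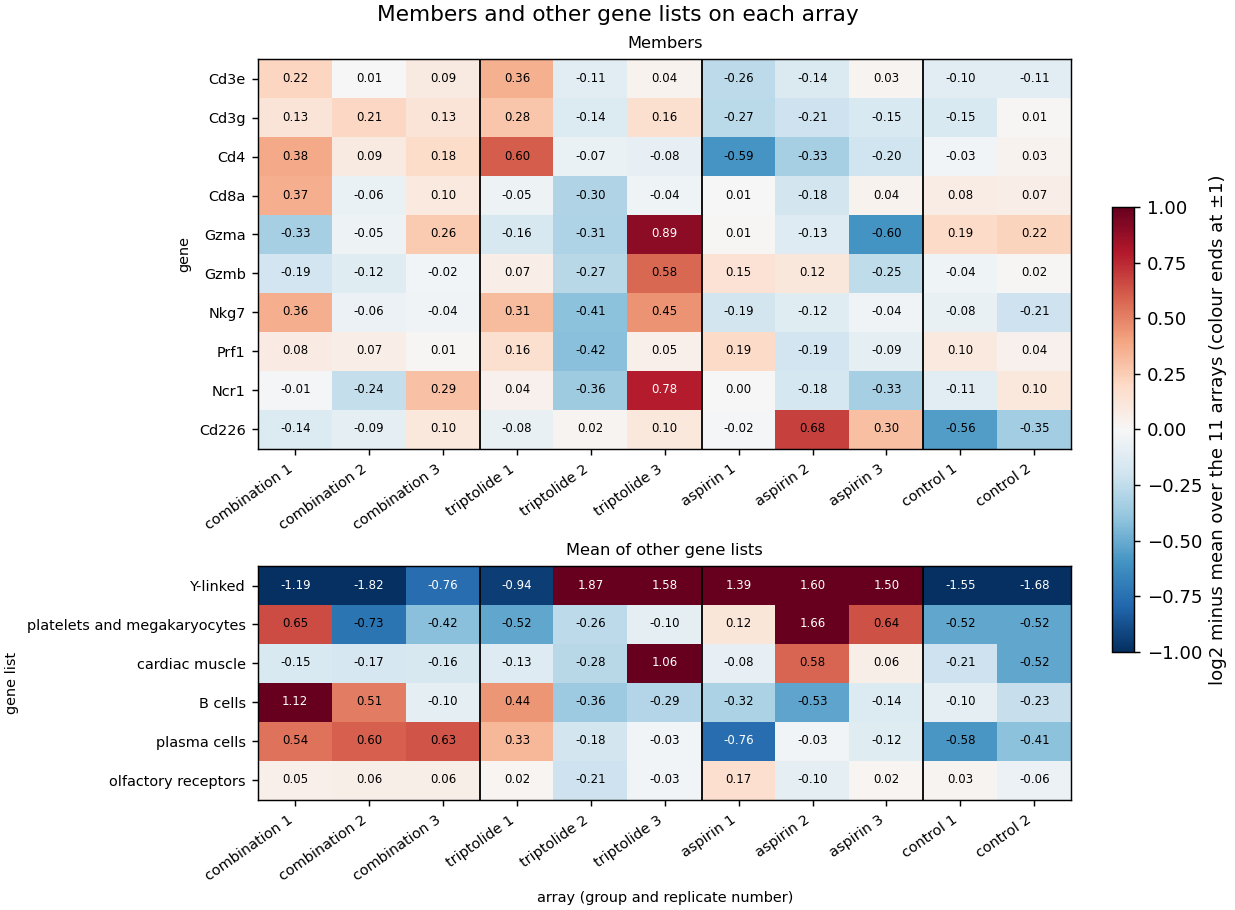
Level of each member (upper panel) and mean level of other gene lists (lower panel) on each array, in log2 units relative to the mean over the 11 arrays. Triptolide 3 holds the highest Gzma (0.89) and the highest cardiac muscle level (1.06), and aspirin 2 the highest Cd226 (0.68) and platelet level (1.66).

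Each comparison was fitted with limma over all genes, and 0 of 19938 genes (0.0%) passed at an adjusted p under 0.05 in any of the 7 comparisons. The numbers of genes with an unadjusted p under 0.05 were 2795 for combination against control, 561 for triptolide against control, 609 for aspirin against control, 2322 for combination against aspirin, 2703 for combination against triptolide, 660 for triptolide against aspirin and 681 for the interaction. Members with an unadjusted p under 0.05 numbered 1, 1, 1, 3, 0, 2 and 1 in the same order. Differences below are log2 ± SE of that fit.

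The combination against control asks what both drugs together did. The 4 members with the smallest p were Cd226, with a difference of 0.41 ± 0.17 (adjusted p = 0.326), Cd3g at 0.23 ± 0.12 (0.440), Cd3e at 0.21 ± 0.14 (0.550) and Cd4 at 0.22 ± 0.20 (0.674). None passed, and the other 6 members differed by -0.25 to 0.23. Groups did not overlap for 5 members, all higher (Cd226, Cd3g, Cd3e, Cd4 and Nkg7), and for 0 lower, where 14.2% of all genes were non-overlapping and higher and 20.5% lower. The median member difference was 0.14 and that of all genes 0.01. The members' median was 0.06 without combination 1 and 0.05 with array weights. It was 0.06 with median centring (all genes -0.06) and 0.08 with quantile normalization (all genes -0.04). With 7 members above control and 3 below as deposited, centring the arrays on their medians gave 5 and 5, and quantile normalization gave 5 and 5. Without combination 1, the differences were 0.45 for Cd226, 0.24 for Cd3g, 0.15 for Cd3e and 0.14 for Cd4, and without control 1 that of Cd3g was 0.15.

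For triptolide against control, the members with the smallest p were Cd226 at 0.46 ± 0.17, Cd8a at -0.20 ± 0.14, Cd3e at 0.20 ± 0.14 and Cd3g at 0.17 ± 0.12, each with an adjusted p of 1.0. Cd226 was non-overlapping and higher, as were 9.92% of all genes, and Cd8a non-overlapping and lower, as were 13.3%. The other 6 members differed by -0.15 to 0.26. The median member difference was 0.15, and 0.0 without triptolide 3. Without triptolide 1 the differences were 0.07 for Cd3e and 0.08 for Cd3g, and without triptolide 2 they were 0.30 and 0.29, with Cd8a at -0.11. Without control 1, Cd3g was at 0.09.

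For aspirin against control, Cd226 had the smallest p of the members, with a difference of 0.77 ± 0.17 (95% interval 0.387 to 1.151, adjusted p = 1.0). Without aspirin 2 the Cd226 difference was 0.59. Cd4 differed by -0.37 ± 0.20, Gzma by -0.44 ± 0.32 and Cd3g by -0.14 ± 0.12, all with an adjusted p of 1.0. Gzma was at -0.26 without aspirin 3, and Cd3g at -0.22 without control 1 and -0.06 without control 2. Cd226 was the 1 non-overlapping higher member (10% of all genes), and 4 were non-overlapping and lower (Cd4, Gzma, Cd3g and Cd8a, 16.0% of all genes). As deposited, 3 members lay above control and 7 below, and after median centring or quantile normalization 1 lay above and 9 below. The median of all genes was -0.05 and -0.03 under these 2 settings. Cd4 and Cd3g differed by 0.27 and 0.18 when the level of the Y-linked genes entered the fit as a covariate, the opposite sign, with adjusted p of 0.792 and 0.791. Within groups that level varied mainly in triptolide (SD 1.55, against 0.54 in combination, 0.10 in aspirin and 0.09 in control). The covariate therefore rests mainly on triptolide 1 against triptolide 2 and 3, and triptolide 1 was also highest for Cd4, Cd3e and Cd3g.

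The combination against aspirin asks what triptolide added. Cd3g differed by 0.37 ± 0.11 (95% interval 0.132 to 0.608, adjusted p = 0.217) and Cd4 by 0.59 ± 0.18 (95% interval 0.205 to 0.979, adjusted p = 0.218). Cd226 differed by -0.36 ± 0.15 (adjusted p = 0.396) and Cd3e by 0.23 ± 0.12 (adjusted p = 0.508). Cd3g and Cd4 were the 2 non-overlapping higher members, where 5.47% of all genes were, and 0 members were non-overlapping and lower, where 9.86% were. Without combination 1 the differences of Cd3g and Cd4 were 0.38 and 0.51, and without aspirin 2 that of Cd226 was -0.18. With the Y-linked covariate they were 0.08 and 0.03, and that of Cd3e was -0.10. The 6 arrays with a low Y-linked level had Cd4 between 8.45 and 9.08, and the 5 with a high level between 7.89 and 8.41. Every combination array was of the first kind and every aspirin array of the second, so here sex-linked level and treatment cannot be told apart.

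The combination against triptolide asks what aspirin added, and member differences ran from -0.24 to 0.26. Cd8a differed by 0.26 ± 0.12 (adjusted p = 0.371), Gzmb by -0.24 ± 0.19 (0.5), Prf1 by 0.13 ± 0.15 (0.630) and Gzma by -0.18 ± 0.29 (0.722). Groups overlapped for all 10 members, where 8.36% of all genes were non-overlapping and higher and 9.53% lower. The sign of Gzma depended on triptolide 3 and that of Prf1 on triptolide 2, whose omission gave 0.20 and -0.05. Without triptolide 3 the difference of Gzmb was -0.009, and without triptolide 2 it was -0.44. Without combination 1 that of Cd8a was 0.15 and that of Gzma -0.04, and Gzma was at -0.33 without combination 3 or triptolide 1. Prf1 was at 0.24 without triptolide 1.

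For triptolide against aspirin, Cd4 differed by 0.53 ± 0.18, Cd3g by 0.31 ± 0.11, Cd226 by -0.31 ± 0.15 and Cd3e by 0.22 ± 0.12, each with an adjusted p of 0.960. Cd4 and Cd3g were non-overlapping and higher, as were 5.89% of all genes, and 0 members were non-overlapping and lower, where 4.0% were. The median member difference was 0.23, and 0.005 without triptolide 3, the array with high Gzma, Gzmb and Ncr1. Without triptolide 1, the highest array for these genes, Cd4 was at 0.30 and Cd3e at 0.09. Cd226 was at -0.13 without aspirin 2 and -0.48 without aspirin 1. Within the arrays of high Y-linked level, Cd4 was at 8.41 and 8.40 on triptolide 2 and 3, and at 7.89 to 8.28 on the aspirin arrays.

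The interaction, combination minus aspirin minus triptolide plus control, asks whether the drugs added up on the log2 scale. Cd226 had the smallest p, at -0.82 ± 0.23, where both drugs together were 0.41 above control, triptolide alone 0.46 and aspirin alone 0.77. Cd8a was at 0.38 ± 0.18, Cd4 at 0.44 ± 0.26 and Cd3g at 0.20 ± 0.16, and all 4 had an adjusted p of 0.895. With the Y-linked covariate, Cd226 was at -0.45, Cd4 at -0.63 and Cd3g at -0.35. Without triptolide 1, Cd4 was at 0.66, and Cd3g was at 0.08 without triptolide 2 and 0.12 without control 2.

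**Figure D3:**
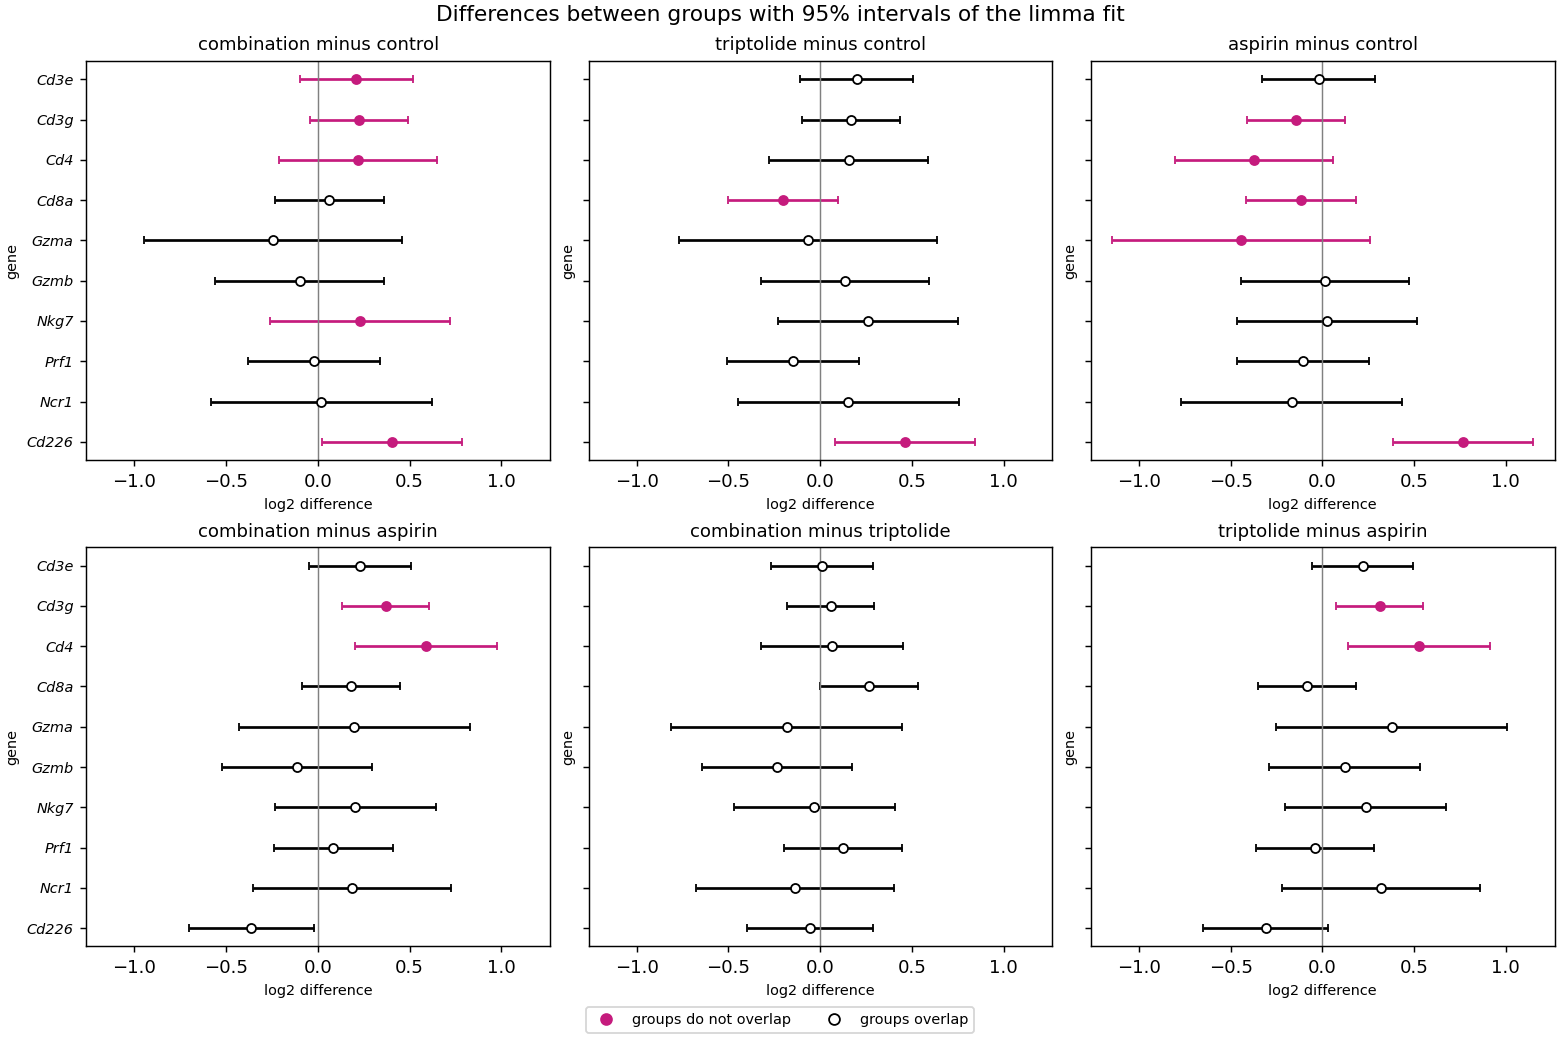
Log2 difference of each member in the 6 pairwise comparisons, with 95% intervals of the limma fit; filled points mark groups that do not overlap. The interval of Cd226 lies above 0 in all 3 comparisons with control (0.387 to 1.151 for aspirin). Those of Cd3g and Cd4 lie above 0 for combination minus aspirin and triptolide minus aspirin, and include 0 for aspirin minus control. No gene passed after adjustment.

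Across the 11 arrays some members varied together. Of 45 pairs, 6 had a permutation p for Pearson's r under 0.05 after adjustment over the pairs, and 0 for Spearman's rho. Cd3e and Cd4 correlated at r = 0.90 and rho = 0.77 (permutation, adjusted p = 0.00967 for r and 0.0862 for rho), and r was 0.73 without triptolide 1 and aspirin 1. Cd3g with Cd4 gave r = 0.84 and rho = 0.81, and Cd3e with Cd3g gave r = 0.81 and rho = 0.77, with r of 0.72 and 0.67 without the same arrays. After subtraction of group means, r was 0.94, 0.60 and 0.70 for these pairs in the order given.

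The other 3 pairs joined Gzma, Gzmb and Ncr1. Gzma and Ncr1 gave r = 0.87 and rho = 0.75 (permutation, adjusted p = 0.0174 and 0.102), and r = 0.60 without triptolide 3 and aspirin 3. Gzma with Gzmb gave r = 0.84 and rho = 0.64, and Gzmb with Ncr1 r = 0.84 and rho = 0.71. Without their 2 outermost arrays these pairs had r of 0.44 and 0.39, so their r depended in large part on those arrays, triptolide 3 among them. After subtraction of group means over all arrays, r was 0.94 and 0.90, and 0.89 for Gzma with Ncr1. Cd3e and Gzma had r = -0.12, and Cd4 and Gzmb r = -0.18. Nkg7 did not fall on 1 side. With Cd3e it had r = 0.74 and rho = 0.85, the highest rho of the 45 pairs (permutation, adjusted p = 0.061 and 0.0787). Its r was 0.67 with Cd3g, 0.53 with Cd4, 0.62 with Ncr1, 0.48 with Gzmb and 0.32 with Gzma.

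Markers of other cells moved with some members, and their part in these values was not tested. The B cell list (7 of 8 symbols measured) stood at -0.10 to 1.12 in combination, -0.36 to 0.44 in triptolide, -0.53 to -0.14 in aspirin, and -0.10 and -0.23 in control. Cd4 correlated with it at r = 0.72 and rho = 0.83 (permutation, adjusted p = 0.14 and 0.085 over 50 relations of members with lists), and at 0.82 without combination 1 and 2. Cd3e had r = 0.71 and rho = 0.77, and r = 0.84 without the same arrays. Cd3g and Cd8a each had r = 0.64, with 0.68 and 0.35 without those arrays. For the other members r ran from -0.34 (Cd226) to 0.55 (Nkg7). Genes of lymph node and lymphoid stroma (5 of 6 measured) stood at 0.60, 0.11 and 0.11 in combination, 0.45, -0.22 and -0.21 in triptolide, -0.18, -0.34 and -0.01 in aspirin, and -0.17 and -0.15 in control. Triptolide 1, highest for Cd4, was thus the second highest array of the stroma list, after combination 1.

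Platelet and megakaryocyte genes (6 of 9 measured) stood at 0.65, -0.73 and -0.42 in combination, -0.52, -0.26 and -0.10 in triptolide, 0.12, 1.66 and 0.64 in aspirin, and -0.52 and -0.52 in control. Cd226 correlated with this list at r = 0.76 and rho = 0.57 (permutation, adjusted p = 0.133 and 0.338), and at 0.65 without aspirin 2 and combination 1. On combination 2 and triptolide 1 the mean of this list was no higher than on the controls, with Cd226 at 8.16 and 8.17 against 7.69 and 7.90. Single genes differed on triptolide 1, with Pf4 at 8.95 against 8.47 and 8.54 in control, and Ppbp at 8.42 against 8.58 and 9.07. Whether platelets add to the Cd226 values was not tested. Cd226 also differed with the Y-linked level, at 7.69 to 8.35 on the 6 arrays of low level and 8.23 to 8.93 on the 5 of high level. Within the arrays of low level it was 8.11 to 8.35 in combination, 8.17 on triptolide 1, and 7.69 and 7.90 in control. With the cardiac muscle list Cd226 had r = 0.59 and rho = 0.72 (permutation, adjusted p = 0.28 and 0.197), and r = 0.63 without triptolide 3 and aspirin 2. Neutrophil genes (8 of 8 measured) reached 3.01 on aspirin 2 and at most 0.46 elsewhere.

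Cardiac muscle genes, a list of 8 added after the values were seen, stood at 1.06 on triptolide 3, 0.58 on aspirin 2 and at most 0.06 elsewhere. Gzmb correlated with them at r = 0.73 and rho = 0.52 (permutation, adjusted p = 0.19 and 0.338), and at -0.17 without triptolide 3 and aspirin 2. Prf1 followed the mean of 1027 olfactory receptor genes, a family of the nose of which 946 lay below the 25th percentile of gene means. That relation had r = 0.86 and rho = 0.70 (permutation, adjusted p = 0.056 and 0.204), and r = 0.59 without triptolide 2 and aspirin 1, and the olfactory level spanned only -0.21 to 0.17.

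**Figure D4:**
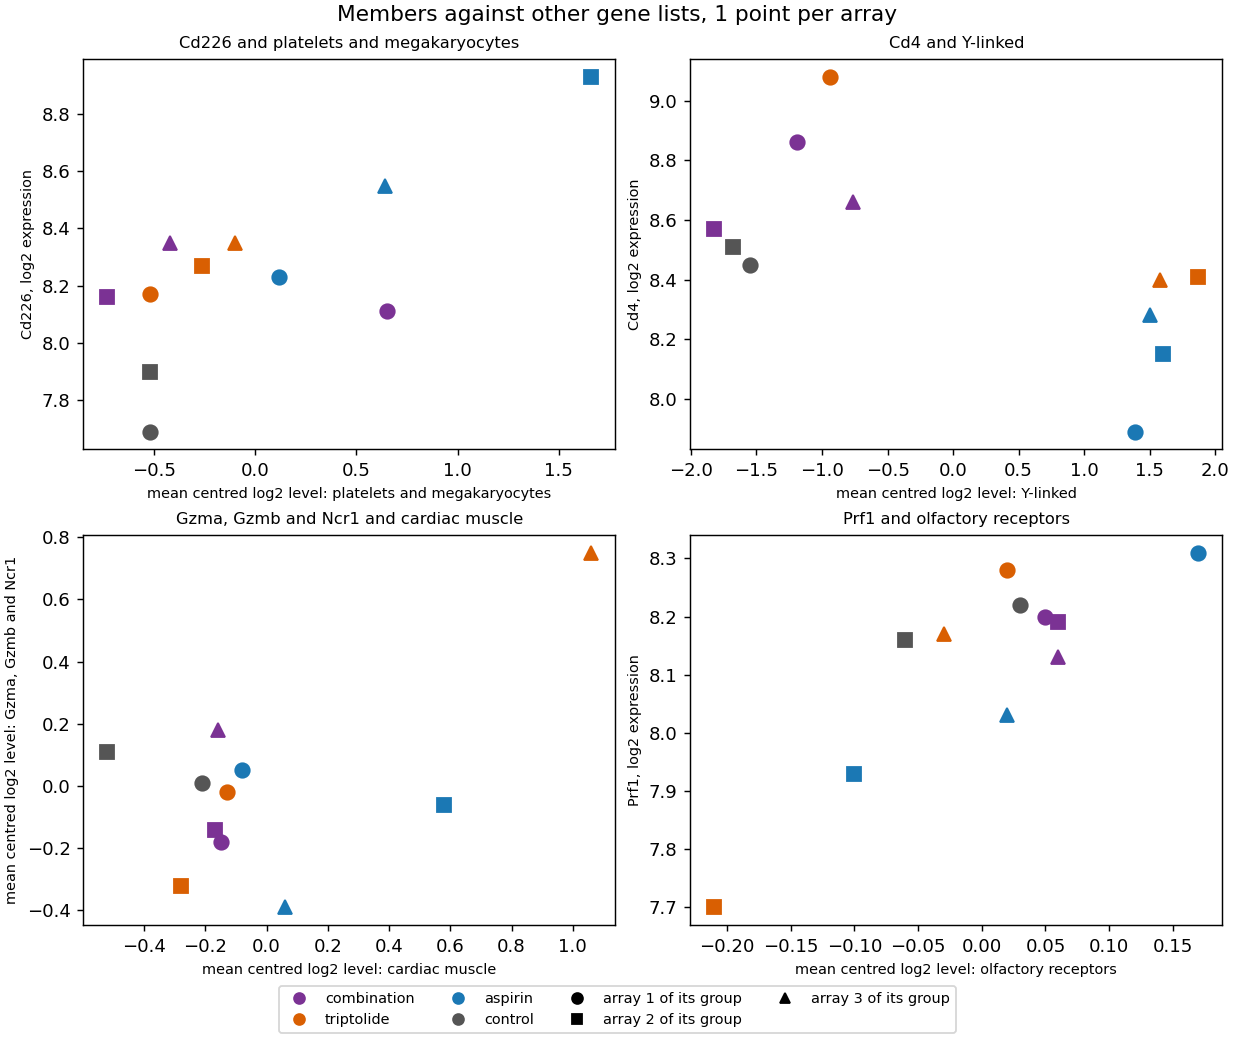
Members (vertical) against the mean centred log2 level of another gene list (horizontal), 1 point per array, coloured by group and shaped by replicate number. Aspirin 2 is at the upper right for Cd226 and platelet genes (8.93 and 1.66), Cd4 splits by Y-linked level (7.89 to 8.41 at high level), triptolide 3 stands alone in the cardiac panel, and Prf1 is lowest (7.70) on triptolide 2, where olfactory receptor values are lowest (-0.21).

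Further T and NK cell genes were read from 8 lists with 99 of 106 symbols measured, and 0 passed in limma in any comparison. Of these 99, 22 had an unadjusted p under 0.05 for combination against control, 9 for triptolide against control and 3 for aspirin against control. The numbers were 27 for combination against aspirin, 12 for combination against triptolide and 5 for triptolide against aspirin. Of all 19938 genes, 2795, 561, 609, 2322, 2703 and 660 had such a p in the same order. In the combination against control, 70 of the 99 lay above and 29 below, against 52.8% of all genes above. After median centring and after quantile normalization, 54 and 57 lay above. Under these settings the median of the 99 was 0.04 and 0.04, and that of all genes -0.06 and -0.04. Of the 99, 38 were non-overlapping and higher and 14 lower, where 14.2% of all genes were non-overlapping and higher and 20.5% lower. In the combination against aspirin, 69 lay above and 30 below, against 50% of all genes above, with 25 non-overlapping higher and 6 lower, where 5.47% and 9.86% of all genes were. With the Y-linked covariate, which rests mainly on the spread among the triptolide arrays, 40 lay above aspirin and 59 below. In triptolide against control 67 lay above, where 45.0% of all genes did, and 51 without triptolide 1. In aspirin against control 45 lay above, where 48.3% of all genes did, and 69 with the Y-linked covariate. After median centring 33 lay above, with a median of -0.06 for the 99 and -0.05 for all genes. In combination against triptolide 52 lay above, where 53.3% of all genes did, and 25 with the Y-linked covariate. In triptolide against aspirin 68 lay above, where 46.9% of all genes did, and 54 without triptolide 1.

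The list of T cell receptor complex and signalling genes had 16 of 18 members above control in combination (median 0.23) and 16 of 18 above aspirin (median 0.26). Its smallest p against control belonged to Lat, the adaptor that links the receptor to its signalling pathways, at 0.47 ± 0.16 (adjusted p = 0.205), Themis at 0.27 ± 0.11 and Sh2d1a at 0.32 ± 0.14 (0.19 without control 2). Against aspirin they were Trat1 at 0.59 ± 0.14 (adjusted p = 0.135), Themis at 0.41 ± 0.10 (0.140) and the costimulatory receptor Cd28 at 0.50 ± 0.16 (0.240). Without combination 1, 15 of 18 lay above control and 16 of 18 above aspirin. With the Y-linked covariate, 16 lay above control and 8 above aspirin.

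Inhibitory checkpoint receptors, which restrain activated T cells, lay above control in 5 of 6 with the combination and above aspirin in 6 of 6, and with the Y-linked covariate above aspirin in 2 of 6. Ctla4 was at 7.90, 8.0 and 7.71 in combination, 7.99, 7.15 and 7.25 in triptolide, 7.37, 6.91 and 7.25 in aspirin, and 7.16 and 7.23 in control. Its combination arrays were above every aspirin and control array, with differences of 0.68 ± 0.23 against control (adjusted p = 0.209) and 0.70 ± 0.20 against aspirin (0.213). Btla differed from control by 0.55 ± 0.24 and Pdcd1 by 0.28 ± 0.13. Btla was at 9.29 on combination 1, where the B cell list stood at 1.12, and without that array it differed by 0.29. Among transcription factors, Ikzf3, which acts in lymphocyte maturation, was 0.79 ± 0.26 above control (adjusted p = 0.199), while Lef1 and Gata3 differed by -0.33 ± 0.11 and -0.30 ± 0.10. Ikzf3 was at 9.59, 9.0 and 8.61 in combination, where the B cell list stood at 1.12, 0.51 and -0.10. In triptolide it was at 9.05, 8.36 and 8.48, where that list stood at 0.44, -0.36 and -0.29. The part of B cells in the Ikzf3 values was not tested. Among naive and memory T cell genes, the interleukin 7 receptor Il7r was 0.72 ± 0.23 above control and S1pr1, which guides lymphocytes out of tissues and is also an endothelial gene, differed by -0.53 ± 0.18. Itgae, the integrin of tissue-resident T cells, differed by 0.30 ± 0.14.

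A list of 8 held the Cd226 ligands Pvr and Nectin2, with further adhesion molecules and receptors. Neither ligand was among the 3 genes with the smallest p against control or against aspirin. Nectin3 had the smallest p in combination against control, at -0.77 ± 0.19 (adjusted p = 0.113), followed by Tigit, the inhibitory receptor that competes with Cd226 for ligands, at 0.47 ± 0.14 (0.177) and Cd96 at 0.27 ± 0.15 (0.457), which was 0.12 without combination 3. Tigit was at 9.28, 9.22 and 9.29 in combination, 9.40, 8.92 and 8.90 in triptolide, 8.82, 8.86 and 9.05 in aspirin, and 8.84 and 8.75 in control. Like Cd4, Tigit was highest on triptolide 1, and its combination arrays were above all aspirin and control arrays.

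Granule and NK receptor genes lay on both sides of control. Median centring, used for some counts below, put the median of all genes at -0.06 in combination against control. Of 14 further granule and effector genes, 9 lay above control in combination and 5 below (5 above after median centring), and the smallest p belonged to the death ligand Tnfsf10, at -1.26 ± 0.26 (adjusted p = 0.081), the granule-docking gene Unc13d at -0.37 ± 0.11 and Rab27a at -0.47 ± 0.25 (-0.30 without combination 1). Against aspirin the T cell chemokine Ccl5 differed by 0.67 ± 0.22. Of 21 NK receptor genes, 15 lay above control in combination (10 after median centring), with Itga2 at -0.65 ± 0.16 (adjusted p = 0.103), Cd244a at 0.29 ± 0.14 and Il2rb at 0.31 ± 0.18 (0.18 without combination 1). Itga2 was at 9.18, 9.54 and 9.42 in combination, 9.54, 10.10 and 9.91 in triptolide, 9.94, 10.11 and 9.98 in aspirin, and 10.09 and 9.97 in control, lowest on the combination arrays. The endothelial list (7 of 7 measured) was lowest in combination too, at -0.73, -0.39 and -0.24 in combination, -0.15, -0.07 and 0.21 in triptolide, 0.24, 0.17 and 0.11 in aspirin, and 0.48 and 0.37 in control, and their part in the values of Itga2, S1pr1 and Tnfsf10 was not tested. Of the 16 cytokine and chemokine genes, 8 lay above control in combination, with the chemokine receptor Cxcr3 at 0.34 ± 0.11, Cx3cl1 at -0.43 ± 0.13 and the T cell attractant Cxcl9 at 1.06 ± 0.34 (adjusted p = 0.197).

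Against aspirin, the genes with the smallest p in the other lists also did not pass. Among transcription factors they were Gata3 at -0.30 ± 0.09, Ikzf3 at 0.71 ± 0.23 and Runx3, the factor of cytotoxic lymphocytes named above, at 0.39 ± 0.14 (adjusted p = 0.293). Among naive and memory genes, Itgae differed by 0.42 ± 0.13, S1pr1 by -0.42 ± 0.17 and the early activation marker Cd69 by 0.31 ± 0.15. Unc13d differed by -0.41 ± 0.10 (adjusted p = 0.157) and Tnfsf10 by -0.84 ± 0.23, beside Ccl5. Of the NK receptor genes, Itga2 differed by -0.63 ± 0.14 (adjusted p = 0.128), Cd160 by 0.20 ± 0.09 and Il2rb by 0.32 ± 0.16. Of the list with the Cd226 ligands, Nectin3 differed by -0.60 ± 0.17, Tigit by 0.36 ± 0.13 and Cd96 by 0.15 ± 0.13. Of the checkpoint genes beside Ctla4, Btla differed by 0.51 ± 0.22 and Lag3 by 0.21 ± 0.12. Of the cytokine genes, Cx3cl1 differed by -0.33 ± 0.12, Cxcl9 by 0.77 ± 0.31 and the T zone chemokine Ccl19 by 0.48 ± 0.22. Without combination 1, Ikzf3 was at 0.45, Runx3 at 0.22, Btla at 0.25, Il2rb at 0.19 and Nectin3 at -0.38. Without aspirin 2, S1pr1 was at -0.26 and Lag3 at 0.13, and Cd96 ran from 0.0 without combination 3 to 0.25 without combination 2.

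The genes whose pattern over the 11 arrays was most like the mean of the 10 centred members were Alpk2 (r = 0.886), Trpv4 (0.864), Olfr1176 (0.851), Il2rb (0.845) and Tbx21 (0.840). Trpv4 encodes a cation channel and Olfr1176 an olfactory receptor. Il2rb, a chain of the interleukin 2 and 15 receptors, and Tbx21, a transcription factor of type 1 lymphocytes, belong to the T and NK cell lists above. The member mean itself was 0.09, -0.02 and 0.11 in combination, 0.15, -0.24 and 0.29 in triptolide, -0.10, -0.07 and -0.13 in aspirin, and -0.07 and -0.02 in control. Triptolide 2 and triptolide 3 held its lowest and its highest value.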

How the data were processed

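Expression in lung was measured on 11 Affymetrix arrays. The deposited table holds 1 log2 value per feature and array, over 35556 features, and per the submitters' processing notes RMA and Partek were used. Versions and settings of both are not given in the sources used. GEO's platform annotation named 21789 features with 1 symbol and 1621 with several, which were not tested, and 12146 were unnamed. The feature with the highest mean stood for a gene, which left 19938 genes. Array medians ran from 8.135 to 8.254, and precision is limited by how many arrays there are.

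All 4 groups entered 1 linear model per gene in limma (version 3.58.1, R version 4.3.3) with moderated variances, two-sided, on 7 residual and 3.68 prior degrees of freedom. Benjamini-Hochberg adjustment ran across the genes, with 0.05 as the limit for passing. The fit was tested on simulated data. Correlations over the arrays used 100000 permutations. List levels are means of centred log2 values.

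The members and the gene lists were chosen with earlier results of these data known, and the motifs and the cardiac and olfactory lists after their values were seen. For each comparison the 4 members with the smallest p are named, and for each further list the 3 genes with the smallest p, where none passed. Further genes are named only in the comparisons of combination with control and with aspirin. The 5 genes most like the members' mean are named too, skipping predicted genes and genes with no known role. Alternatives were median centring, quantile normalization, a filter at the 25th percentile of gene means, the mean of a gene's features, array weights (gene-by-gene method, since the default did not converge), the replicate number as a block, the Y-linked level as a covariate, the 2 groups alone, and leaving out each array.

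Titles share replicate numbers between groups. Symbols with no match in the table were not analysed here.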

Additional observations from a re-analysis of the deposited data

How the results depend on the processing

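No member passed as deposited, and members passed under array weights alone. These gave weights of 0.15 for combination 1, 5.99 for aspirin 3 (0.44 and 0.62 for aspirin 1 and 2) and 3.3 for triptolide 3 (0.91 and 0.33 for triptolide 1 and 2). They called 1 member in aspirin against control (Cd226, 0.764, adjusted p = 0.007), 1 in combination against aspirin (Cd3g, 0.343, adjusted p = 0.0366) and 2 in triptolide against aspirin (Cd3g, 0.332, and Gzma, 1.11, both adjusted p = 0.0485). Gzma was highest of all arrays on triptolide 3 (8.57) and lowest on aspirin 3 (7.08), the arrays of largest weight in these groups. Its difference as deposited was 0.38. Adjusted p for Cd226 in aspirin against control ran from 0.007 to 1.0 over the settings, and for Cd3g in combination against aspirin from 0.037 to 0.994. Counts of all genes called were 0 as deposited. In combination against control they were 335 with median centring, 2 with quantile normalization, 66 with low genes left out, 1704 with array weights and 96 with the Y-linked covariate. Array weights called 10 in triptolide against control, 535 in aspirin against control, 873 in combination against aspirin, 1 in combination against triptolide, 137 in triptolide against aspirin and 16 for the interaction. In combination against aspirin, quantile normalization called 2, leaving out low genes 1 and the 2 groups alone 2, and in aspirin against control the 2 groups alone called 4. The replicate block called 152 genes in combination against control and 0 members. Same-numbered arrays correlated between -0.139 and 0.329 in their deviations from group means, and arrays of different number between -0.382 and 0.337. With so few arrays these ranges cannot settle whether the numbers pair the samples. Leaving out 1 array called 0 to 896 genes in combination against control (896 without combination 3), 0 to 3 in triptolide against control, 0 to 4 in aspirin against control, 0 to 704 in combination against aspirin (704 without combination 3), 0 to 24 in combination against triptolide and 0 to 6 for the interaction (6 without triptolide 1). The median member difference was 0.312 under array weights in triptolide against control, and 0.225, -0.029 and -0.396 under the Y-linked covariate in aspirin against control, combination against aspirin and the interaction. Leaving out 1 array gave medians of 0.0 to 0.296 in triptolide against control and 0.005 to 0.378 in triptolide against aspirin, both lowest without triptolide 3. Signs turned under the Y-linked covariate for Cd4 and Cd3g in aspirin against control (0.266 and 0.184), Cd3e in combination against aspirin (-0.102), Prf1 and Gzma in combination against triptolide (-0.164 and 0.108), and Cd4 and Cd3g in the interaction (-0.63 and -0.347). Leaving out 1 array gave -0.05 to 0.24 for Prf1 and -0.407 to 0.196 for Gzma in combination against triptolide. Of the other member differences named in the text, 306 values with 1 array left out and 209 under other settings kept their direction and their side of the threshold. The cause of these changes was not tested, and the Y-linked covariate rests mainly on the spread among the triptolide arrays. Of the 99 further T and NK cell genes, array weights called 6 higher and 6 lower in combination against control, 5 and 6 in combination against aspirin, 4 higher in triptolide against aspirin and 1 lower in aspirin against control. Of all 19938 genes they called 534 higher and 1170 lower, 311 and 562, 82 higher and 318 lower in the same order. In combination against control the Y-linked covariate called 2 of the 99 higher, median centring 1 lower, the replicate block 1 lower, and omission of combination 3 called 1 higher and 2 lower, with 1 higher and 1 lower against aspirin. Of all genes these settings called 16 higher, 327 lower, 143 lower, and 77 higher and 819 lower, with 116 higher and 588 lower against aspirin. The low filter left out Gzmb and Ncr1, so it gave no value for them. The control group rests on 2 arrays, and signal over background is not given, so whether low genes were limited by it is unknown.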
